A study of Ovis aries with 32 samples.

Results

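The comparison described here is the effect of maternal cortisol on gene expression in the left ventricle (LV) of newborn lambs, at the level of single named genes and single lambs. It used every LV array of the study, 8 from CORT lambs and 8 from Control lambs, which is 16 of 32 arrays, and the other 16 hold the interventricular septum (IVS). CORT lambs were born to ewes that were infused with cortisol (0.5 mg/kg/day), given overnight from day 115 of gestation until delivery, and Control lambs to ewes without the infusion. All lambs were taken at 14 days of age, and no lamb was treated after birth. The ewes were black-faced, a twin pair was born into each group, and the labels do not say which lambs are twins. By the paper's numbers the Control twins are both on the arrays, so that not all Control lambs are independent. More CORT lambs were born alive than the 8 on the arrays, so that 1 CORT twin may be missing. Sex of the lambs is not among the labels and was not used. Since whole LV tissue was measured, fewer cells of a type and less RNA per cell cannot be told apart in any value below.

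RNA of each lamb was hybridised to 1 Agilent 1-color sheep array with 15008 probes of 60 bases. The LV arrays lay on 2 slides with 4 arrays of each group on either. A level is the log2 of the background-corrected and quantile-normalized spot intensity of 1 probe, in arbitrary units, and levels of different probes are not compared. The files and a RefSeq gene table name a gene for 1562 of the probes (967 genes), so that the named genes are a small share of what the arrays measured. Of 15008 probes 11517 were bright enough to be tested, and among them 1067 named probes stand for 720 genes. Arrays had a median spot intensity of 139 to 217 and 60.0 to 77.8% of probes well above background, and the median correlation of an array with the others was 0.983 to 0.991. Control 2, Control 7, CORT 2 and CORT 3 had the highest scores on the first principal component (11.5 to 28.3), which held 19.5% of the variance. They are called the 4 arrays that stood apart below, and Control 7 lay farthest out. The lowest scores, -15.6 in CORT 8 and -10.0 in Control 4 and Control 1, lay at the opposite end. Those arrays were not part of the 4. MB (myoglobin, the oxygen-binding protein of striated muscle) was the only cardiomyocyte marker with a named probe. It lay at 17.78 to 18.38 in Control and 17.83 to 18.21 in CORT lambs, and no atrial or nerve marker had a named probe.

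Cortisol acts through the glucocorticoid receptor (NR3C1) and the mineralocorticoid receptor (NR3C2), which move to the nucleus when bound and change the transcription of their target genes. The enzyme HSD11B1 makes cortisol from inactive cortisone inside the cell, and HSD11B2 does the reverse. Around birth, rising cortisol matures many organs of the lamb, and in the heart the perinatal period is when cardiomyocytes stop dividing, enlarge and turn from carbohydrate toward fatty acids as fuel.

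Across all tested probes, 444 of 11517 had an unadjusted limma p under 0.05 (3.86%), 191 higher in CORT (1.66%) and 253 lower (2.2%). None passed Benjamini-Hochberg adjustment, and the smallest adjusted p was 0.999. With slide as a block, 536 probes passed the unadjusted threshold (4.65%), 245 higher (2.13%) and 291 lower (2.53%), none passed after adjustment and the smallest adjusted p was 0.131. Without the 4 arrays that stood apart, 801 probes passed the unadjusted threshold and none the adjusted one. The differences were small: the median log2 difference (CORT minus Control) was 0.0015, 95% of probes lay between -0.22 and 0.21, and the median size among the 444 was 0.19. Only 2 probes (0.0174%), both without a name, had groups of 8 lambs that did not overlap. The groups therefore overlapped for every named gene below. In what follows a gene is called higher or lower when its unadjusted limma p was under 0.05, the threshold of the study's methods, and its adjusted p was 0.999 or more in every case.

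Of the 720 named genes, taking the brightest probe of each, 46 passed the unadjusted threshold (6.39%), 13 higher in CORT (1.81%) and 33 lower (4.58%). Their differences ran from -0.73 to 0.56 on the log2 scale. The 46 differed in the same direction on both slides, as did 429 of the 444 probes and 41.6% of all tested probes, a direction that passing over both slides together favors, and 44 of them had p under 0.05 with slide as a block. An exact two-sided permutation test over the 12870 ways to assign the lambs gave p under 0.05 for 36. When any single array was left out, 21 genes kept p under 0.05 throughout, and the other 25 each had between 2 and 12 arrays without which limma's p was 0.05 or more. Without the 4 arrays that stood apart, 21 of the 46 passed and 0 changed direction. Among those that did not pass were ADRB1 (log2 difference -0.16 without these arrays), THRB (-0.15), BCL2L1 (-0.13), COL3A1 (-0.21), INHA (0.45), MCP-3 (0.24), CLEC4E (-0.36), NUDT16 (-0.23), CAST (-0.23), CYBA (-0.08), TLR6 (-0.06), CD14 (-0.10), PLAUR (-0.12) and NARS (-0.12), while GHR, SOD2, IDH1, LGMN, BAX, PTGER3, CLOCK, FTO and UBA1 passed. Where a gene below is said not to pass with an array left out, the array named is the one whose removal raised p most, or Control 7.

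**Figure D1:**
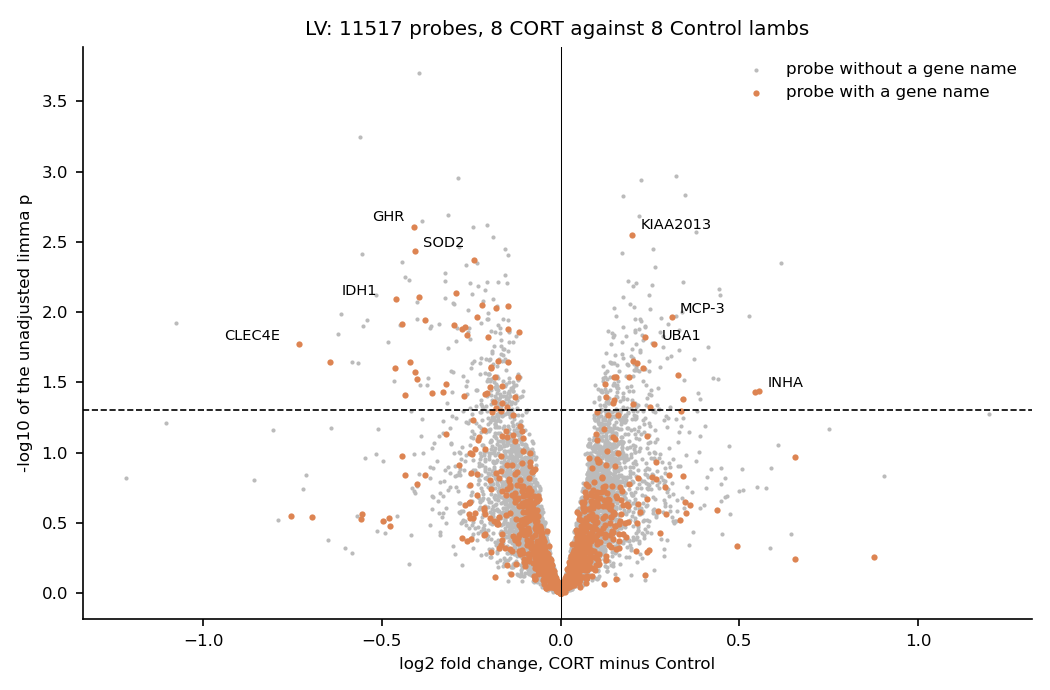
Each point is 1 tested probe of the LV, with the log2 difference CORT minus Control on the horizontal axis and -log10 of the unadjusted limma p on the vertical axis, orange for probes with a gene name and a dashed line at p of 0.05. Most points lie between -0.22 and 0.21, and of the named genes with p under 0.05, 33 lie on the left (lower in CORT) and 13 on the right.

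Several genes are measured by probe pairs that overlap in sequence, and such pairs are not independent measurements of the gene. Of 324 genes with at least 2 tested probes, 195 have a pair that shares a run of 30 or more bases, and so do 18 of the 28 such genes among the 46. The sequences below are shown for 4 genes on which the following results turn, with the run shared by probe 1 and probe 2 in capitals and the probe's own bases in lower case. The SOD2 pair overlaps by 30 bases end to start, the BAX, PTGER3 and COL3A1 pairs are shifted by only a few bases, and the third COL3A1 probe shares no such run with the others.
SOD2 probe 1: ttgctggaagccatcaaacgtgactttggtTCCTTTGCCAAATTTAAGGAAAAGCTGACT
SOD2 probe 2: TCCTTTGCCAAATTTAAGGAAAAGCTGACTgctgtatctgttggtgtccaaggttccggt
BAX probe 1: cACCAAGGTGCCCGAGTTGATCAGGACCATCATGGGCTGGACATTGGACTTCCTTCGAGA
BAX probe 2: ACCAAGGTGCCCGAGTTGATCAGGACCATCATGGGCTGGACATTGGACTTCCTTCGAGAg
PTGER3 probe 1: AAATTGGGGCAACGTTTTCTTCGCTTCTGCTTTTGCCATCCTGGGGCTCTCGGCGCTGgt
PTGER3 probe 2: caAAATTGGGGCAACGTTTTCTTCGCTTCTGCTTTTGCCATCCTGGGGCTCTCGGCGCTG
COL3A1 probe 1: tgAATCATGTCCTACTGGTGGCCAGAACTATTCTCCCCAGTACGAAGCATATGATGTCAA
COL3A1 probe 2: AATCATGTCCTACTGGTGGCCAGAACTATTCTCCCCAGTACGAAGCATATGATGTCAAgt
COL3A1 probe 3: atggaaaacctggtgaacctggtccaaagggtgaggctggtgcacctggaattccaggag
Among the 28 genes with several tested probes, the probes differed in the same direction in 27, and in 14 every probe passed the threshold in that direction.

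The brightest named probes of the glucocorticoid receptor and of the 2 enzymes that convert cortisol and cortisone did not differ past the threshold. The paper lists NR3C1 among the genes higher in the LV of CORT lambs. Whether a probe without a name here gave that value was not tested. NR3C1 had a level of 7.23 to 7.89 in Control lambs (median 7.62) and 7.39 to 7.92 in CORT lambs (median 7.66). The ranges nearly coincided, and the log2 difference was 0.06 (SE 0.10, exact permutation p = 0.564). HSD11B1 was at 8.97 ± 0.49 in Control and 8.996 ± 0.30 in CORT (mean ± SD, 8 lambs each), and HSD11B2 at 7.16 ± 0.31 and 6.99 ± 0.15 (exact permutation p = 0.91 and 0.189). NR3C2 was not analysed here. Of 44 listed genes known to respond to glucocorticoids, only 12 had a named probe and 9 were tested. These were FOS, PER2, CEBPB, NFKBIA, G6PC1, FBXO32, LEP, MYC and TGFB1. Of the 9 tested genes 0 passed the threshold, beside 6.39% of all named genes, and most of the list was not measured. Their median log2 difference was 0.02 against 0.0015 over all probes, with 6 above and 3 below 0. FOS, an immediate early transcription factor, had the largest difference of the list at 0.27 (exact permutation p = 0.303).

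Among nuclear hormone receptors, THRB, a receptor for thyroid hormone, was lower in CORT lambs. Its level was 8.47 to 8.94 in Control (median 8.78) and 8.40 to 8.72 in CORT (median 8.54). All 8 CORT lambs lay below the Control mean. The log2 difference was -0.20 (SE 0.08, limma p = 0.0151, exact permutation p = 0.0197) and was alike on the slides, at -0.20 and -0.21. It was the only one of 12 tested members of its list past the threshold, and the list's median was 0.03.

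GHR, the growth hormone receptor, had the smallest p of the named genes. Control lambs lay at 9.23 to 9.73 (median 9.32) and CORT lambs at 8.67 to 9.51 (median 8.93). Of the CORT lambs 7 were below the Control mean and 1 was above it. The log2 difference was -0.41 (SE 0.12, limma p = 0.00248, exact permutation p = 0.00684), with -0.50 on slide 1 and -0.32 on slide 2. IGF1, which growth hormone induces in liver and other tissues, had a difference of -0.09 (exact permutation p = 0.587). Of 14 tested genes of the insulin, IGF and growth hormone axis, GHR alone passed, and the median of the list was -0.01.

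Of 51 listed antioxidant and redox genes 8 were tested, and these mostly had differences below 0. SOD2, the manganese superoxide dismutase of the mitochondrial matrix, was at 11.97 to 12.75 in Control (median 12.30) and 11.75 to 12.09 in CORT lambs (median 11.91). The CORT lambs were close together (SD 0.12) beside the Control lambs (SD 0.35), and all 8 lay below the Control mean. The log2 difference of probe 1 was -0.41 (SE 0.12, limma p = 0.00368, exact permutation p = 0.00653) and that of probe 2, which overlaps it, was -0.38 (limma p = 0.0113). On slide 1 the difference was -0.61 and on slide 2 it was -0.21. CYBA, the p22-phox subunit of NADPH oxidases, was at 9.09 ± 0.10 in Control and 8.96 ± 0.11 in CORT, a difference of -0.13 (exact permutation p = 0.0309). Its second probe, which shares a run of 59 bases with the first, gave -0.15 (exact permutation p = 0.00497). The first probe did not pass when any 1 of 8 arrays was left out, among them CORT 2 (difference -0.10 without it). FTH1, the heavy chain of the iron store ferritin, had a difference of -0.13, with a limma p just over the threshold and an exact permutation p = 0.0434. Of the 8 tested genes 2 were lower (25%, beside 4.58% of all named genes) and 0 higher, and 7 had a difference below 0. These 7 include CYBA and CYBB (-0.15), both NADPH oxidase subunits, and TXN (-0.03) and TF (-0.009). The median was -0.13 against 0.0015 over all probes, or -0.06 without the 4 arrays that stood apart.

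IDH1 and CPT1A, enzymes of isocitrate and fatty acid metabolism, were lower. IDH1, the cytosolic isocitrate dehydrogenase that makes NADPH, was at 11.87 to 13.09 in Control (median 12.77) and 11.88 to 12.48 in CORT lambs (median 12.24). All CORT lambs were below the Control mean, and the lowest lamb of all was a Control. The log2 difference was -0.46 (SE 0.15, limma p = 0.0081, exact permutation p = 0.0176). CPT1A, which carries long-chain fatty acids toward mitochondrial oxidation, was at 8.63 to 9.63 in Control (median 9.07) and 8.05 to 9.22 in CORT (median 8.58). Of the CORT lambs 6 lay below the Control mean and 2 above it. The difference was -0.41 (SE 0.17, limma p = 0.0268, exact permutation p = 0.0441). CPT1A did not pass when any 1 of 3 arrays was left out, among them CORT 7 (-0.32 without it). CPT1B, the other CPT1 gene tested, had a difference of 0.04 (exact permutation p = 0.701) and did not pass. Over the 15 tested genes of fatty acid uptake, storage and oxidation the median was -0.02, and over the 10 of fatty acid and sterol synthesis it was -0.01. PLIN5, a lipid droplet protein, had the highest value of the former at 0.24 (exact permutation p = 0.103). No gene of glycolysis and glycogen use passed (0 of 11, median 0.02).

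Of 10 tested genes of the citric acid cycle and oxidative phosphorylation, ATP5MC1, a subunit of the membrane ring of ATP synthase, was higher. Its brightest probe was at 17.75 ± 0.10 in Control and 17.89 ± 0.16 in CORT (log2 difference 0.15, exact permutation p = 0.0423). Its other probes did not settle on 1 value: 1 bright probe gave 0.13 (exact permutation p = 0.025), and the dim ones gave -0.10 (exact permutation p = 0.675) and 0.00 (exact permutation p = 0.997). The brightest probe did not pass when any 1 of 11 arrays was left out, among them CORT 8 (difference 0.11 without it).

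Both a promoter and an inhibitor of apoptosis were lower. BAX, which permeabilizes the outer mitochondrial membrane, was at 8.43 to 9.02 in Control (median 8.76) and 8.26 to 8.72 in CORT lambs (median 8.49). BCL2L1, which encodes the BAX antagonist BCL-XL, was at 7.20 to 7.53 in Control (median 7.33) and 7.06 to 7.34 in CORT (median 7.21). For each gene all 8 CORT lambs lay below the Control mean. The differences were -0.23 for BAX (SE 0.08, limma p = 0.0108, exact permutation p = 0.0149) and -0.15 for BCL2L1 (SE 0.06, limma p = 0.0226, exact permutation p = 0.0177). The second BAX probe gave -0.24 (exact permutation p = 0.00637), and the second BCL2L1 probe gave -0.08 (exact permutation p = 0.275). The BCL2L1 probes share a run of 56 bases, so that nearly the same sequence gave unlike values. BCL2, another inhibitor of apoptosis, had a difference of -0.05 and did not pass. CCNA2, the S phase and mitotic cyclin, had the highest value of the list at 0.34 (exact permutation p = 0.188). Of 19 tested genes of cell cycle, growth control and apoptosis 2 were lower (10.5%, beside 4.58% of all named genes). The median was 0.01.

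ADRB1 and PTGER3, receptors of the heart's sympathetic and prostaglandin signals, were lower, and RGS2, a brake on Gq-coupled receptors, was higher. PTGER3, the EP3 receptor for prostaglandin E, was at 11.07 to 11.84 in Control (median 11.28) and 10.72 to 11.27 in CORT lambs (median 10.95). The highest CORT lamb (11.27) lay just under the Control median, and all 8 lay below the Control mean. The difference was -0.30 (SE 0.11, limma p = 0.0124, exact permutation p = 0.0148), and its shifted second probe gave -0.29. ADRB1, the main beta-adrenergic receptor of cardiomyocytes, was at 8.06 to 8.56 in Control (median 8.30) and 7.69 to 8.24 in CORT (median 8.10). The difference of -0.26 (SE 0.10, limma p = 0.0145, exact permutation p = 0.0239) was -0.51 on slide 1 and -0.02 on slide 2. RGS2 was at 7.32 ± 0.14 in Control and 7.47 ± 0.13 in CORT (difference 0.15, exact permutation p = 0.0404), and its second probe gave 0.21 (exact permutation p = 0.0269). RGS2 did not pass when any 1 of 10 arrays was left out, among them Control 2 (0.12 without it). Of 17 tested genes of this list 2 were lower and 1 higher (17.6%, beside 6.39% of all named genes), and the median was -0.02. AGTR1, the angiotensin receptor, had a difference of 0.08 (exact permutation p = 0.691), and EDNRA, an endothelin receptor, one of -0.15 (exact permutation p = 0.0729).

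**Figure D2:**
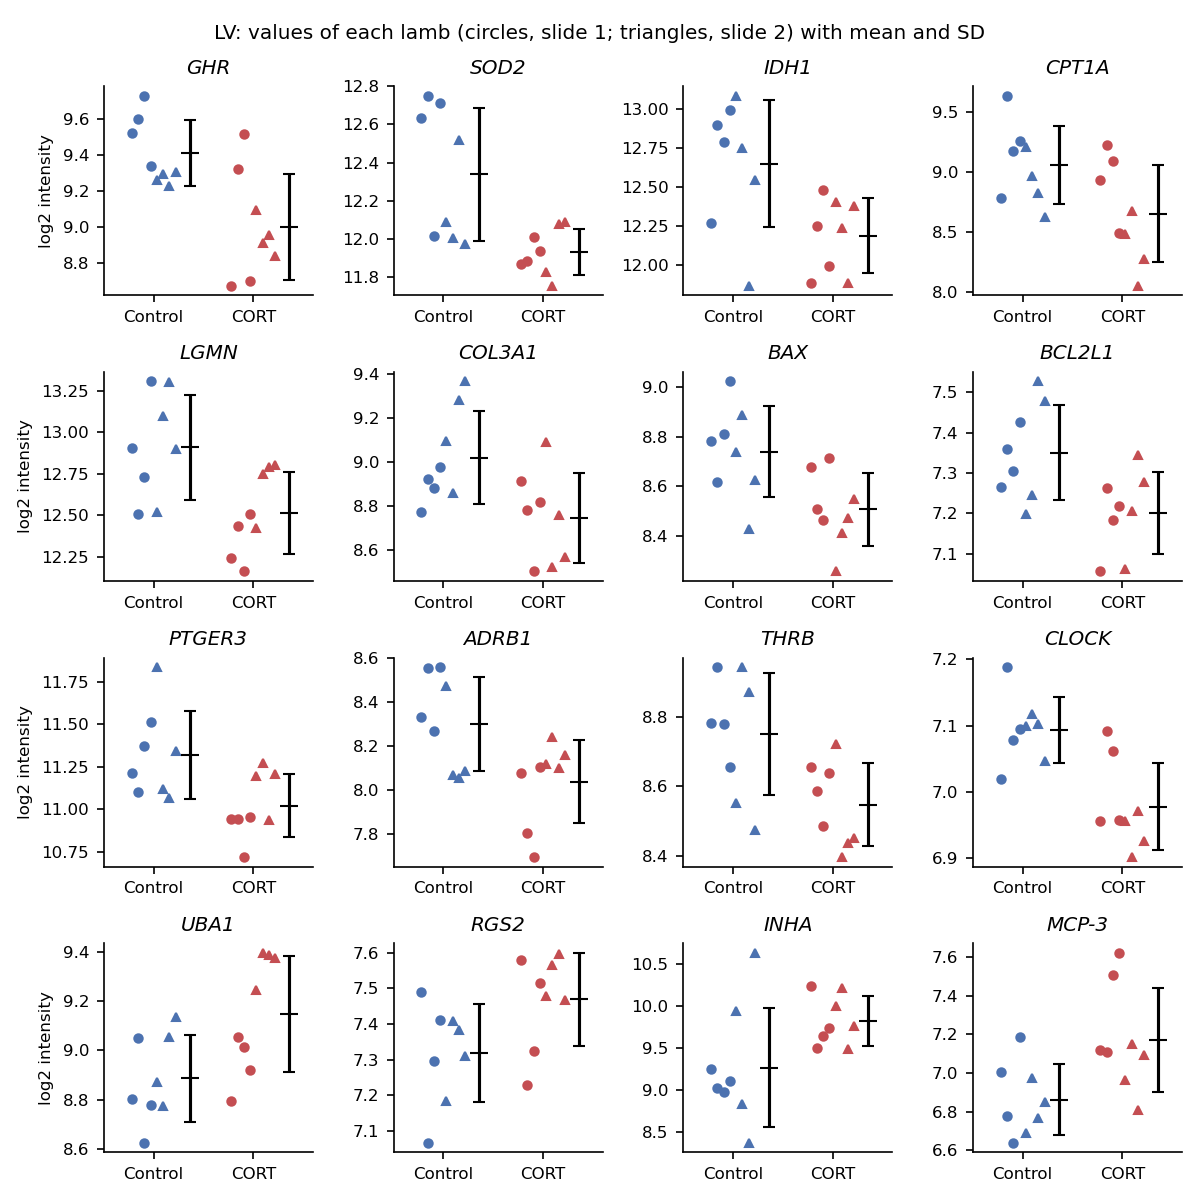
Level (log2 intensity) of 16 genes past the unadjusted threshold in each of the 16 LV lambs, Control beside CORT, with circles for slide 1, triangles for slide 2 and bars for the mean ± SD. The groups overlap in every panel. The CORT points of SOD2 (SD 0.12) are close together beside the Control points (SD 0.35), and the ADRB1 difference lies on slide 1 (-0.51).

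In the extracellular matrix list 3 of 20 tested genes were lower (15%, beside 4.58% of all named genes) and none higher. The median was -0.05. COL3A1, the chain of type III collagen, was at 8.77 to 9.37 in Control (median 8.95) and 8.50 to 9.09 in CORT lambs (median 8.77). Of the CORT lambs 7 lay below the Control mean. The difference was -0.28 (SE 0.10, limma p = 0.0132, exact permutation p = 0.0207), its shifted second probe gave -0.27, and the third probe, with no shared run, gave -0.11 (limma p = 0.301). TIMP3, an inhibitor of matrix metalloproteinases, had a difference of -0.19 (SE 0.08, exact permutation p = 0.0306), and did not pass when any 1 of 4 arrays was left out, among them CORT 8 (-0.16 without it). PLAUR, the urokinase receptor, had -0.18 (exact permutation p = 0.0087), and -0.12, still past the threshold, without Control 7, whose 7.32 was the highest value. It was well above background on 7 Control and 5 CORT arrays. COL1A2, a chain of type I collagen, had -0.21 (exact permutation p = 0.085). The 4 tested fibroblast markers, COL3A1 among them, had a mean centered level of -0.12 to 0.47 in Control and -0.21 to 0.15 in CORT lambs, and the part of fibroblast content in these values was not tested.

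INHA, the inhibin alpha subunit, had the largest positive difference of the named genes past the threshold. Its level was 8.38 to 10.63 in Control (median 9.07) and 9.49 to 10.24 in CORT lambs (median 9.75). All 8 CORT lambs lay above the Control mean, although the highest lamb was a Control (10.63). The difference was 0.56 (SE 0.24, limma p = 0.0365, exact permutation p = 0.059), and its second probe, with a shared run of 59 bases, gave 0.54. INHA did not pass when any 1 of 9 arrays was left out, among them Control 7 (0.43 without it). INHBA, the activin beta A subunit, had 0.36 (exact permutation p = 0.281). The other 22 tested members of the TGF-beta, activin and BMP list did not pass, and the median of all 23 was 0.02.

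Translation and protein handling held genes in both directions. EIF4GI, the file's name for the scaffold factor of cap-dependent initiation, was at 7.57 to 7.92 in Control (median 7.74) and 7.31 to 7.82 in CORT lambs (median 7.51). With 7 CORT lambs below the Control mean, the difference was -0.22 (SE 0.07, limma p = 0.00898, exact permutation p = 0.0127). EIF3A, a subunit of the initiation factor that binds the small ribosomal subunit, had -0.32 (exact permutation p = 0.051) with -0.11 on slide 1 and -0.53 on slide 2, and did not pass when any 1 of 5 arrays was left out, among them CORT 8 (-0.24 without it). PABPC1, the poly(A)-binding protein, had -0.20 (exact permutation p = 0.0351), and did not pass when any 1 of 6 arrays was left out, among them CORT 3 (-0.14 without it). Of 7 tested genes of the translation factor list, which does not hold EIF4GI, 2 were lower (28.6%, beside 4.58% of all named genes) and 6 were below 0. The 2 were EIF3A and PABPC1. Their median of -0.07 became 0.02 without the 4 arrays that stood apart. Among 18 ribosomal protein genes RPS2 was lower by a small step, 17.58 ± 0.11 in Control and 17.46 ± 0.04 in CORT (difference -0.12, exact permutation p = 0.0135). It did not pass when any 1 of 5 arrays was left out, among them Control 4 (-0.10 without it), and the list's median was -0.04.

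UBA1, the enzyme that activates ubiquitin, was higher, at 8.62 to 9.14 in Control (median 8.84) and 8.80 to 9.39 in CORT lambs (median 9.15). Of the CORT lambs 7 lay above the Control mean. The difference was 0.26 (SE 0.10, limma p = 0.017, exact permutation p = 0.0272), and its second probe, with a shared run of 56 bases, gave 0.23 (limma p = 0.0251). LGMN, a lysosomal cysteine protease, was lower, at 12.51 to 13.31 in Control (median 12.90) and 12.16 to 12.80 in CORT (median 12.47). The difference was -0.40 (SE 0.13, limma p = 0.00782, exact permutation p = 0.0152), and all CORT lambs were below the Control mean. DERL1, which takes part in the export of misfolded proteins from the endoplasmic reticulum, had -0.21 (exact permutation p = 0.051), and did not pass when any 1 of 7 arrays was left out, among them CORT 8 (-0.17 without it). DKC1, the pseudouridine synthase of box H/ACA particles, had -0.27 (exact permutation p = 0.0595), of which -0.06 was measured on slide 1 and -0.49 on slide 2, and it did not pass when any 1 of 9 arrays was left out, among them CORT 8 (-0.21 without it).

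CLOCK, the transcription factor of the circadian feedback loop, had a small difference and a small spread on a dim probe. The size depended on the processing, with differences from -0.27 to -0.10 over the other settings and single-array removals. It was at 7.02 to 7.19 in Control (median 7.10) and 6.90 to 7.09 in CORT lambs (median 6.96). All 8 CORT lambs lay below the Control mean, and the difference was -0.12 (SE 0.04, limma p = 0.0139, exact permutation p = 0.00249). The other 7 tested clock genes did not pass, among them PER2 (-0.03), PER3 (-0.02), CRY1 (0.07) and DBP (0.07), and the median of the 8 was -0.01. FTO, an RNA demethylase, was at 9.06 to 9.45 in Control (median 9.23) and 8.93 to 9.18 in CORT (median 9.10). Its difference was -0.18 (SE 0.06, limma p = 0.00938, exact permutation p = 0.00886), and its second probe gave -0.08 (limma p = 0.262). KIAA2013, a gene of unknown function, was higher in all 8 CORT lambs than the Control mean, at 9.96 to 10.19 in Control (median 10.09) and 10.11 to 10.48 in CORT (median 10.29). The difference was 0.20 (SE 0.06, limma p = 0.00283, exact permutation p = 0.00171), and the second probe gave 0.11 (limma p = 0.116).

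Few contractile and calcium handling genes had a named probe. CALM2, which encodes calmodulin, was higher, at 13.19 ± 0.10 in Control and 13.34 ± 0.14 in CORT lambs (difference 0.15, exact permutation p = 0.0256), and did not pass when any 1 of 6 arrays was left out, among them CORT 8 (0.12 without it). CFL1, the actin-severing cofilin, had 0.25 (exact permutation p = 0.0662), with 0.05 on slide 1 and 0.45 on slide 2, and did not pass when any 1 of 10 arrays was left out, among them CORT 8 (0.19 without it). TPM1 (-0.03), MYL6 (-0.13) and GJA1 (-0.07) did not pass. The medians were 0.01 over 7 sarcomere and contraction genes and -0.02 over 12 genes of calcium handling and ion transport.

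Genes of immune cells gave 4 single differences. CLEC4E, a C-type lectin receptor of myeloid cells that was picked after its values were seen, had the largest difference of the 46. It was at 6.47 to 9.13 in Control (median 7.17) and 6.28 to 7.20 in CORT lambs (median 6.59). The highest value belonged to Control 7, and the probe was well above background on 7 Control and 3 CORT arrays. The difference was -0.73 (SE 0.28, limma p = 0.0168, exact permutation p = 0.0144), and -0.49, still past the threshold, without Control 7. CD14, the lipopolysaccharide co-receptor of monocytes and macrophages, had -0.16 (exact permutation p = 0.0263), and did not pass when any 1 of 7 arrays was left out, among them Control 7 (-0.12 without it). TLR6 had -0.15 (exact permutation p = 0.0483), did not pass when any 1 of 12 arrays was left out, among them Control 7 (-0.12 without it), and its other probes gave -0.05 and -0.06. The 3 tested myeloid markers had a mean centered level of -0.50 to 0.94 in Control and -0.32 to 0.34 in CORT lambs, and the part of myeloid cell content in these values was not tested. MCP-3, here mast cell proteinase-3, was higher, at 6.64 to 7.19 in Control (median 6.82) and 6.81 to 7.62 in CORT (median 7.11). Its difference was 0.31 (SE 0.11, limma p = 0.0108, exact permutation p = 0.0155), on a probe well above background on 5 Control and 6 CORT arrays. FCER1A, the mast cell marker with a tested probe, had 0.14 without passing, at a centered level of -0.66 to 0.76 in Control and -0.16 to 0.39 in CORT. No gene passed among 19 cytokines, chemokines and their receptors (median 0.00) or among 21 of angiogenesis and vascular growth factors (median 0.04), and over 20 genes of interferon response and innate immunity, CD14 and TLR6 included, the median was -0.06.

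**Figure D3:**
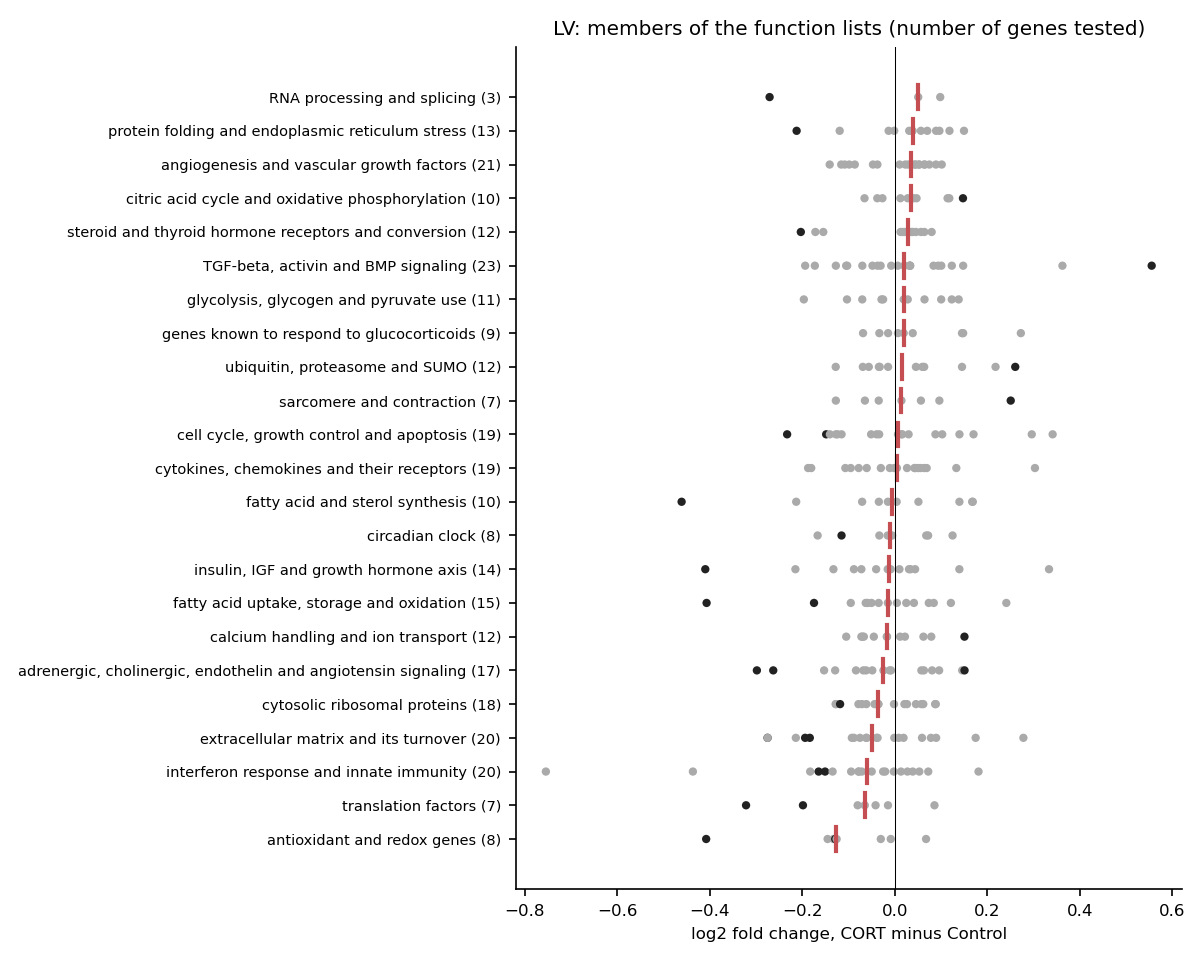
Each row is 1 list of genes and each point 1 tested gene, placed by its log2 difference CORT minus Control, with black for an unadjusted limma p under 0.05, grey for the rest and a red bar for the median of the list. The medians of the antioxidant and redox list (-0.13) and of the translation factors (-0.07) lie left of 0. Without the 4 arrays that stood apart these 2 medians were -0.06 and 0.02. Most other medians lie near 0.

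Over all 23 function lists with a tested gene, 28 of 296 genes passed the threshold, 6 higher and 22 lower, beside 6.39% of all named genes. The genes that follow belong to no list and were picked after their values were seen. NUDT16, a nuclear hydrolase of nucleoside diphosphates, had -0.46 (exact permutation p = 0.0379) and did not pass without Control 3 (-0.41) or CORT 2, and its second probe gave -0.43 (exact permutation p = 0.0595). Without the 4 arrays that stood apart it was at -0.23. CAST, the calpain inhibitor calpastatin, had -0.42 (exact permutation p = 0.0412) and did not pass without Control 7 (-0.34) or CORT 2. Its second probe gave -0.24 (exact permutation p = 0.126), and the first was at -0.23 without the 4 arrays that stood apart. TSPO, an outer mitochondrial membrane protein, had -0.36 (exact permutation p = 0.058) and did not pass when any 1 of 8 arrays was left out, among them Control 2 (-0.28 without it). IL13RA1, a subunit of the receptors for IL-4 and IL-13, had -0.33 (exact permutation p = 0.0589), with -0.01 on slide 1 and -0.65 on slide 2, and did not pass when any 1 of 8 arrays was left out, among them CORT 7 (-0.26 without it). C-JUN, a subunit of AP-1, had -0.19 (exact permutation p = 0.0527) and did not pass when any 1 of 9 arrays was left out, among them CORT 3 (-0.14 without it). NARS, the file's name for an asparagine tRNA ligase, had -0.21 (exact permutation p = 0.0488) and did not pass when any 1 of 8 arrays was left out, among them Control 2 (-0.16 without it). NPC2, a cholesterol carrier of the lysosome, had -0.18 (exact permutation p = 0.0591) and did not pass when any 1 of 11 arrays was left out, among them CORT 3 (-0.14 without it). Of the genes with a positive difference, the probe of a neuropilin-1 record had 0.20 (exact permutation p = 0.0215). PPP2CA, a catalytic subunit of protein phosphatase PP2A, had 0.16 (exact permutation p = 0.0266) and did not pass when any 1 of 4 arrays was left out, among them CORT 8 (0.13 without it). YWHAE, a 14-3-3 protein, had 0.20 (exact permutation p = 0.0589) and did not pass when any 1 of 11 arrays was left out, among them CORT 6 (0.16 without it). MRCL3, a myosin regulatory light chain, had 0.12 (exact permutation p = 0.0207) and did not pass when any 1 of 6 arrays was left out, among them CORT 2 (0.105 without it).

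**Figure D4:**
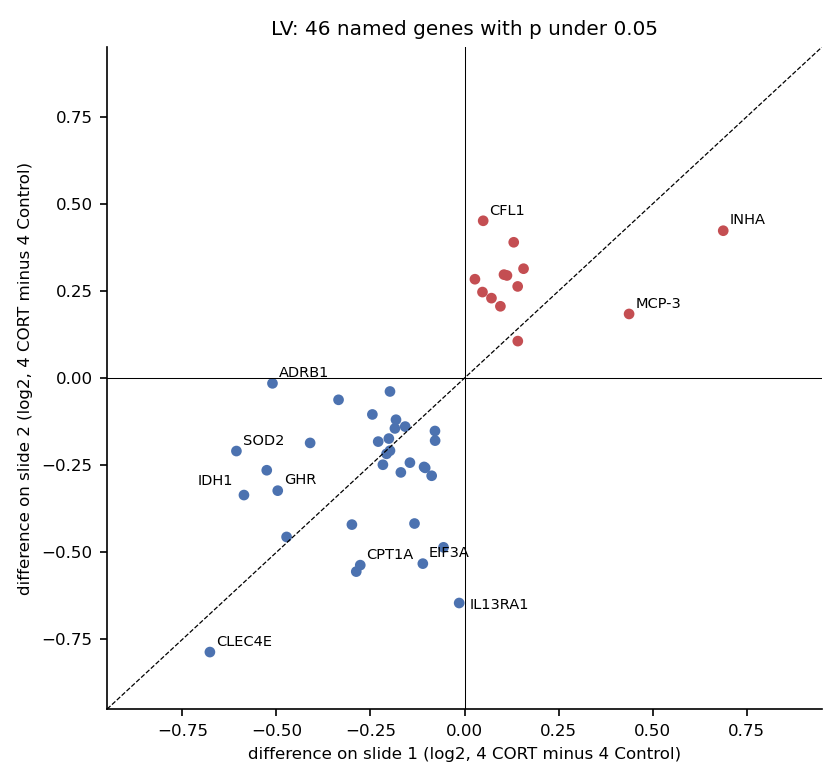
Log2 difference CORT minus Control on slide 1 (horizontal axis) and slide 2 (vertical axis), 4 lambs of each group per slide, for the 46 named genes past the unadjusted threshold over both slides. The 46 points lie in the lower left or the upper right quadrant, lower genes in blue and higher genes in red, with ADRB1 (-0.51 and -0.02) and IL13RA1 (-0.01 and -0.65) near an axis.

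The spread between lambs of 1 group was described for every tested probe. The median SD over the tested probes was 0.159 among Control and 0.156 among CORT lambs, and 48.2% of probes varied more in CORT. The pooled SD within groups was 0.087 at the 5th and 0.431 at the 95th percentile, and it was above 1 for 50 probes. ASIP, the agouti signaling protein known for its part in coat color, varied most (pooled SD 3.18). It was at 6.66 in Control 8, 6.91 in Control 4 and 6.63 in CORT 8, and between 13.41 and 15.15 in the other 13 lambs. No lamb lay between these levels. HBB, the beta chain of adult hemoglobin and a marker of erythrocytes, ran from 11.43 (Control 2) to 16.23 (Control 8). FABP4, a fatty acid carrier of adipocytes and endothelial cells, lay at 8.999 to 10.16 in Control 2, 5 and 8 and in CORT 2, 4 and 5, and at 7.76 or lower in the other lambs.

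Interferon-induced genes were highest in the same lamb. MX2, an antiviral GTPase, was at 13.25 in CORT 2 and at 7.93 to 11.02 in the other 15 lambs. The ubiquitin-like modifier ISG15 was at 14.27 in CORT 2 and at most 13.68 elsewhere, and the chemokine CXCL10 was at 10.91 there and at most 8.48 elsewhere. None of the 3 passed the threshold between the groups (exact permutation p = 0.825 for MX2, 0.335 for ISG15 and 0.948 for CXCL10). AHSG and ALB, plasma proteins made by the liver, were highest in CORT 1 at 11.17 and 9.10. TNNC2, the troponin C of fast skeletal muscle, was at 13.38 in Control 2 and at 8.85 to 9.67 in the other lambs. TIMP1, an inhibitor of matrix metalloproteinases, was at 16.13 in Control 7 and at 13.00 to 13.88 in the other lambs. In Control 7 the secreted protease inhibitor SLPI (11.06), complement C3 (12.81) and lysozyme (LYZ, 9.35) were also highest, and without this array the difference of TIMP1 moved from -0.28 to 0.06.

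**Figure D5:**
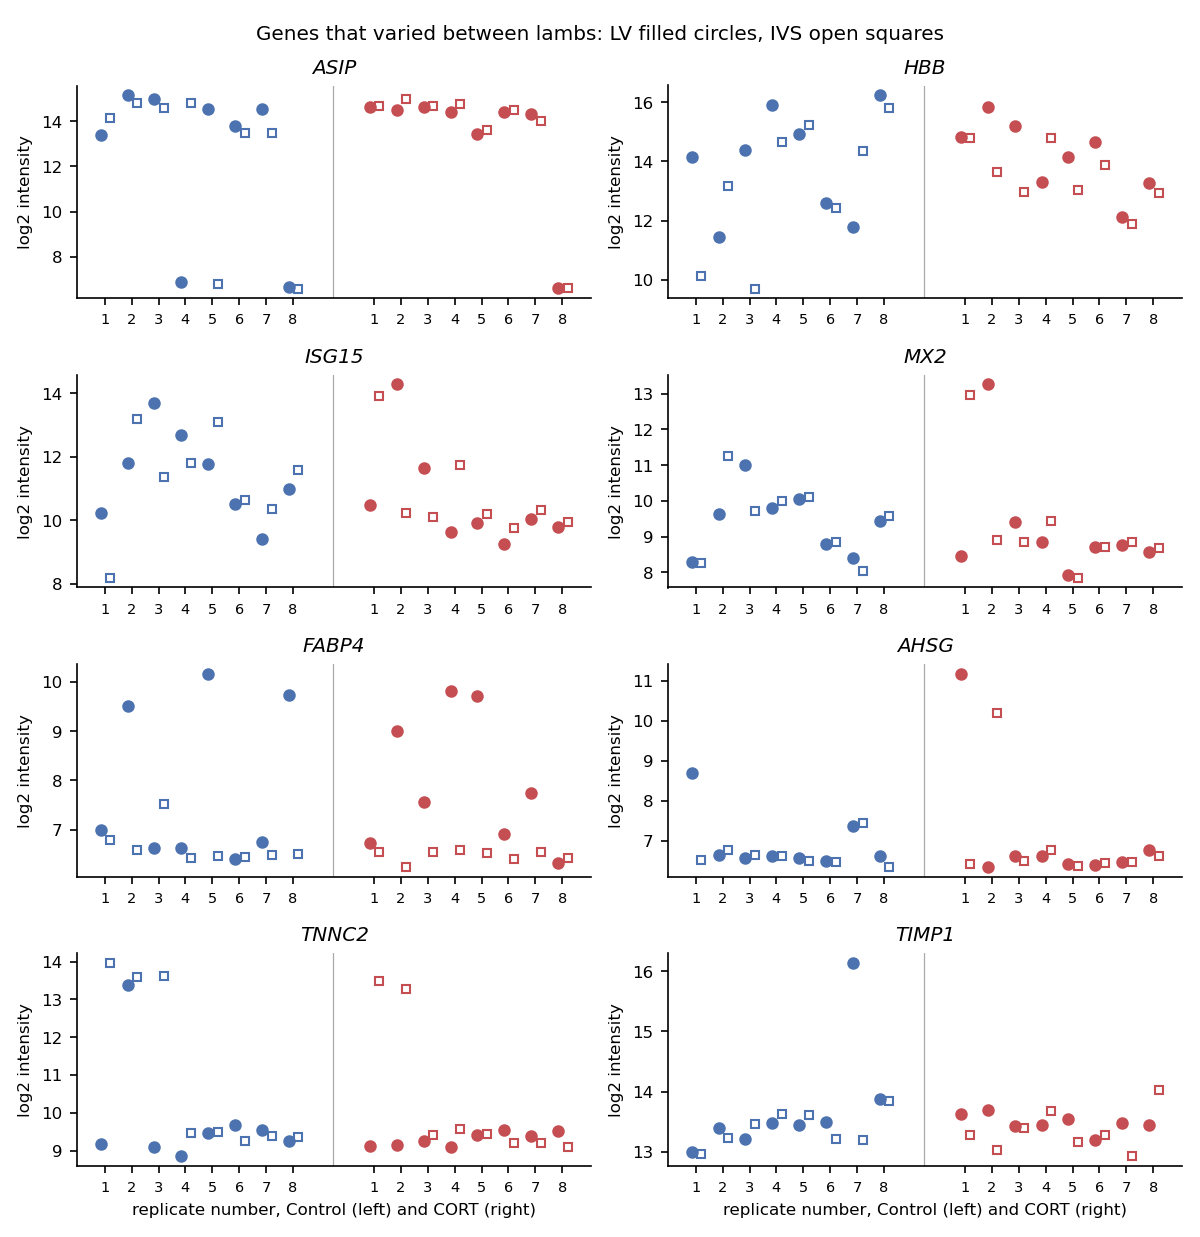
Level (log2 intensity) of 8 genes with a large spread in each sample, ordered by group and replicate number, with filled circles for LV and open squares for IVS. ASIP is near 6.6 to 6.9 in 3 LV arrays and above 13 in 13, and the highest MX2 value is that of CORT 2 in the LV (13.25) and of CORT 1 in the IVS (12.96).

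The labels number the samples of each tissue from 1 to 8 within a group but do not say whether a number marks 1 lamb in both tissues. In the IVS, ASIP was low in Control 5 (6.78), Control 8 (6.60) and CORT 8 (6.62), and high in Control 4 (14.80), which was low in the LV. MX2 was highest in the IVS in CORT 1 (12.96), and AHSG and ALB in CORT 2 (10.20 and 9.23), which is the reverse of their places in the LV. Fast troponin TNNC2 was at 13.28 to 13.96 in the IVS of Control 1, 2 and 3 and of CORT 1 and 2, and at 9.58 or lower in the others. The glutaredoxin GLRX was at 7.29 in CORT 1 and 9.52 in CORT 2 in the LV, and at 9.57 and 7.28 in the IVS. Other values lay close together under equal numbers. GLRX in CORT 5, 6, 7 and 8 was at 9.39, 9.40, 8.13 and 8.69 in the LV and at 9.27, 9.38, 8.13 and 8.67 in the IVS, and GLRX2 in these lambs at 8.14, 8.40, 9.67 and 8.19 in the LV and at 8.24, 8.39, 9.75 and 8.28 in the IVS. Equal numbers thus went with like values in some samples and unlike values in others, and were not taken to mark the same lamb throughout.

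A comparison with the IVS tested whether the effect of maternal cortisol differed between the tissues. By the study's methods both tissues were dissected from the same hearts, 8 in each group, so that the 32 arrays are not from 32 separate lambs. The labels do not match the samples of a lamb, and the fit treated the arrays as unrelated, so that its SEs and p-values leave the shared lambs out of account. With arrays of equal group and number as a random block, 303 probes passed the unadjusted threshold. In the fit without a block the interaction of tissue and treatment had an unadjusted limma p under 0.05 for 233 of 11519 probes (2.02%) and passed adjustment for none (smallest adjusted p 0.9999). Of the 46 LV genes, 5 had an interaction p under 0.05. The 46 were picked by their LV difference, which is itself part of the interaction. That choice favors a small interaction p, so that the 5 do not show effects particular to the LV. The LV minus IVS difference in effect was -0.37 (SE 0.17) for COL3A1, -0.57 for DERL1, -0.49 for TSPO, -0.72 for C-JUN and 0.48 for the probe named PPLBC. For GHR (-0.27), SOD2 (-0.21) and IDH1 (0.13) the same test did not pass. CXCL1, a neutrophil chemokine outside these 5, had -1.41 (SE 0.42, unadjusted p under the threshold, adjusted p = 0.9999), from -0.11 in the LV and 1.27 in the IVS.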

How the data were processed

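Gene expression was measured in the LV of 8 CORT and 8 Control lambs on 1-color arrays, with groups taken from the deposited sample descriptions. Per the submitters' processing notes, the authors read the spots with Agilent Feature Extraction 10.1.1.1, and the deposited intensity is the mean signal of a spot beside its local background, in arbitrary units. A deposited table of the authors' own normalized log2 values served as an alternative only. Methods and descriptions differ in RNA amount and dye, without effect on the values.

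All LV spots were background corrected (normexp, offset 50), then quantile normalized across 16 arrays with limma 3.58.1 (R 4.3.3, statmod 1.5.0). Python 3.11.15 made the tables. Control spots and flagged outlier spots (0.0493%) were dropped, and replicate spots were averaged as log2 values. Tested probes exceeded the negative controls' 95th percentile by over 10% on 8 or more arrays. CORT was compared with Control by lmFit and eBayes, two-sided, at an unadjusted p under 0.05 and after Benjamini-Hochberg adjustment, and single genes also by an exact permutation test. Twins share a mother, so p-values measure the spread between arrays that are not all independent. The number of arrays limits the precision. The interaction used all 32 arrays as unrelated, although LV and IVS came from the same hearts. The fit was tested on simulated data.

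Probe names came from the files (213 probes by the file's name alone) or from RefSeq gene names of assembly ARS-UI_Ramb_v3.0, and 13446 probes have no name here. Gene lists were written from general knowledge. Lists, rules and the comparison itself were chosen with earlier results of these data known. Named by the rule were the 15 genes with the smallest p, of each list the members with p under 0.05 and the 2 with the brightest probes, the 6 most and 6 least variable genes, and, where tested, NR3C1, NR3C2, HSD11B1 and HSD11B2, 104 genes in all. Some genes are not reported here, although counts over genes include them. Of the 46 genes past the threshold, 13 fall outside the rule. Members of a list given as not past the threshold, and IVS levels, were picked after their values were seen.

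Alternatives were a normexp offset of 0 or 16, uncorrected signals, Agilent's processed signal scaled by the 75th percentile of each array, cyclic loess normalization, the authors' table, quantile normalization over 32 arrays, other limits on dim probes, a block for slide or replicate number, array weights, trended and robust eBayes, and each array left out. Leaving out the 4 arrays that stood apart was added after seeing the data.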

Additional observations from a re-analysis of the deposited data

Results flagged for a closer look

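In each of 206 groups of 8 lambs, the highest and the lowest lamb were compared with the nearest other lamb of its group, and 15 stood apart. By chance about 1 in 20 groups would, but AHSG, ASIP and MX2 were among the genes named for their large spread, so that this share does not hold for the set. All values are log2 intensities. Some were set by genes of other cell types or of interferon: AHSG was 8.69 in Control 1 and 11.17 in CORT 1, MX2 was 13.25 in CORT 2, TNNC2 was 13.38 in Control 2, and TIMP1 was 16.13 in Control 7. ASIP was 6.63 in CORT 8, with the nearest CORT lamb at 13.44. Control 7 also had the highest PLAUR (7.32) and the lowest SLC25A4 (18.00), the adenine nucleotide carrier of mitochondria, which was lowest at 18.13 in CORT 2 among CORT lambs. Most other lambs had the identical SLC25A4 level of 18.33, and none was above 18.38, so that these 2 gaps rest on tied values. In CORT 2 the growth inhibitor CDKN1C (12.51) and the interferon receptor subunit IFNAR1 (11.90) were highest. In CORT 3 the chaperone HSP90AA1 (10.61) and TLR6 (7.20) were lowest. The T cell gene CD3E was lowest in Control 3 (5.74), and the B cell gene CD40 was highest in CORT 8 (8.40).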

How the results depend on the processing

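None of the alternatives gave a probe past the adjusted threshold, and the smallest adjusted p over settings with all arrays or 1 left out ran from 0.131 to 0.9999. The count of 444 probes became 725 with arrays weighted by quality (349 higher) and 801 without the 4 arrays that stood apart (432 higher). With each array left out in turn it ran from 297 (without Control 3) to 602 (without Control 8), the probes higher in CORT from 120 to 281 and those lower from 177 to 329, and without Control 3 the former was 120. The count of list genes past the threshold, 28, ran from 19 to 29 with each array left out, and from 20 (cyclic loess) to 30 (quantile over 32 arrays, or no limit on dim probes) in the other settings. With slide as a block the interaction passed for 565 probes in place of 233. The median SD became 0.278 (Control) and 0.287 (CORT) with the processed signal over its 75th percentile. The replicate number as a block gave 536 probes (smallest adjusted p 0.653) and 303 for the interaction. Lambs of equal number did not deviate together in most cases (correlations of 0.0034 to 0.286, 3 of 8 over 0.1), so that the numbers were not taken to pair lambs. Of the 33 rule-named genes past the threshold, 15 kept p under 0.05 in every other setting with all arrays that tested them (14, or 13 for KIAA2013) and in all 16 single-array removals (ADRB1, BAX, BCL2L1, CLOCK, COL3A1, EIF4GI, FTO, GHR, IDH1, KIAA2013, LGMN, MCP-3, PTGER3, SOD2 and UBA1), and none of the 33 changed direction; without the 4 arrays that stood apart, ADRB1, BCL2L1, COL3A1 and MCP-3 of these did not pass. For BCL2L1, COL3A1, FTO and KIAA2013 a further probe, given above, had a p over 0.05. Genes that changed direction had not passed: with cyclic loess BBC1 was at -0.021, CRYAB at -0.11, RPS27A at -0.11 and SLC25A4 at -0.14, and with the processed signal PLGF was at -0.17. The cause was not tested. Signal over background limits the values of the dim probes of CLEC4E, PLAUR and MCP-3. The size of a difference on a dim probe also depended on the setting. Over the other settings and single-array removals, CLOCK ran from -0.27 to -0.10 and BCL2L1 from -0.35 to -0.12. RGS2 ran from 0.12 to 0.31 and MCP-3 from 0.24 to 0.81.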

Other observations

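Smooth muscle and endothelial markers were not discussed above. CNN1, the calponin of smooth muscle, had an SD of 0.99 among Control and 0.61 among CORT lambs, with a difference of 0.44 (exact permutation p = 0.302), and 5 endothelial markers had a median difference of 0.06, none of them past the threshold. IGFBP2, an IGF carrier, was at 9.93 to 12.61 in Control and 11.41 to 12.11 in CORT lambs (exact permutation p = 0.356), with an SD of 0.944 and 0.258. GLRX, a glutaredoxin, had the second highest difference of the most variable genes after ASIP, at 0.66 (exact permutation p = 0.147), and neither passed the threshold. The GLRX difference was -0.28 on slide 1 and 1.59 on slide 2.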
